A study of Mus musculus with 6 samples.

Results

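The fringe glycosyltransferases and the O-fucose and O-glucose transferases of Notch were examined in mouse embryos, in tissue taken at the level of the presomitic mesoderm, the unsegmented region that gives rise to the somites. The 5 genes are Lfng, Mfng, Rfng, Pofut1 and Poglut1. They were found by taking every probe set that the array's annotation assigns to 1 of these symbols alone, which gave 5 of the 12393 genes and 8 of the 22626 probe sets tested: 2 each for Lfng, Rfng and Pofut1, and 1 each for Mfng and Poglut1. Embryos homozygous for the Dll3 neo allele (Dll3tm1Rbe, here Dll3neo/neo, on C57BL/6) were compared with wild-type C57BL/6 embryos, all at 9.5 days post coitum. Each genotype had 3 pools of embryos, described as biological replicates, and how many embryos a pool held is not stated in the labels. The tissue was cut at the border of the last formed somite after the allantois was removed, and cells of every germ layer at that level came with the mesoderm. A value of 1 is the median of the 6 arrays for that probe set. Values therefore compare pools within a probe set, not genes with each other, so the 5 enzymes cannot be ranked by abundance, and whether a marker gene of the tissue is present cannot be read from them.

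Notch receptors and their ligands carry repeats of the epidermal growth factor type in their outer part, and these repeats are decorated with sugars while the protein is made. Pofut1 adds fucose and Poglut1 adds glucose to the repeats in the endoplasmic reticulum, and the fringe enzymes Lfng, Mfng and Rfng later extend the fucose with N-acetylglucosamine in the Golgi, which changes how strongly a receptor answers Delta and Jagged ligands. In the mouse presomitic mesoderm, Lfng is itself switched on by Notch in waves of the segmentation clock, and loss of Lfng, like loss of the divergent ligand Dll3, disturbs the spacing of vertebrae and ribs. Mfng and Rfng are not known as clock genes of this tissue.

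The promoter windows of Lfng, its paralog Rfng and Poglut1 are shown because they differ in a motif that bears on Notch control. Each window runs from 250 bases before to 50 after the gene's start in RefSeq on GRCm38.p6. Capitals mark the letters TGGGAA, the core read by RBPJ, the DNA-binding partner of cleaved Notch, and the E-box CACGTG, which basic helix-loop-helix factors bind, both searched on both strands.
Lfng (chr5:140607091-140607390, plus strand): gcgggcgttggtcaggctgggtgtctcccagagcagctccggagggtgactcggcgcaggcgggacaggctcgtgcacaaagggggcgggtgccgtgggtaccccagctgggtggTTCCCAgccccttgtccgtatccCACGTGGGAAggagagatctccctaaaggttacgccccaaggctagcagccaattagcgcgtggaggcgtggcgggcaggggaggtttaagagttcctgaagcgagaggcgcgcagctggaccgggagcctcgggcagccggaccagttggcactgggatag
Rfng (chr11:120784155-120784454, minus strand): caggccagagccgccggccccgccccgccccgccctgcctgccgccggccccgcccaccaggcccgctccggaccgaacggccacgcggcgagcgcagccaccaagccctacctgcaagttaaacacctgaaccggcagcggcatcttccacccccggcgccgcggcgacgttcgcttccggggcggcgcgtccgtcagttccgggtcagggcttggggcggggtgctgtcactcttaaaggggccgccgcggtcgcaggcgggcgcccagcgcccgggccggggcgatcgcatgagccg
Poglut1 (chr16:38550207-38550506, minus strand): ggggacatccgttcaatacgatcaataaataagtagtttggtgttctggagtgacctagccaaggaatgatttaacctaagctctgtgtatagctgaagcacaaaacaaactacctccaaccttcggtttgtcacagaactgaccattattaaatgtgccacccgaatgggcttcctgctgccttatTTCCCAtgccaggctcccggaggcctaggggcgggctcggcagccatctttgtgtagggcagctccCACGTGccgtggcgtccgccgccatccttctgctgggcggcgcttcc

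The Lfng window held the RBPJ core 2 times, beginning 135 and 108 bases before the start, and 1 E-box beginning 112 bases before it, which shares 2 bases with the nearer RBPJ core. The Poglut1 window held 1 RBPJ core and 1 E-box. The windows of Rfng and Pofut1 held no match to either, and that of Mfng was not analysed here. These short motifs are common: of 32851 promoter windows of the same length, 25.6% held the RBPJ core, 7.15% the E-box and 1.67% both. Among Notch targets of the clock, the Hes7 window held 1 RBPJ core and the Nrarp window held an E-box and no RBPJ core. A match describes the letters only, and binding was not measured.

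Dll3, read by its single probe set 1449236_at, checks the labels. Its ratio was 0.480, 0.476 and 0.537 in Dll3neo/neo pools 1, 2 and 3, against 1.46, 1.63 and 2.01 in wild-type pools 1, 2 and 3. It fell by 1.76 on the log2 scale (SE 0.14, limma adjusted p = 0.00691) and was the 1 probe set of the whole array past the threshold, or 0.00442% of those tested. When 1 Dll3neo/neo pool or wild-type pool 2 was left out, the Dll3 difference lay between -1.82 and -1.73 and its adjusted p in limma between 0.0627 and 0.0924. The pools were not equally quiet. Wild-type pool 3 held the highest of the 6 values for 34.0% of all probe sets and the lowest for 29.3%, and wild-type pool 1 held 18.7% and 21.1%. Dll3neo/neo pool 1 stood apart by heart muscle markers: 8 of 8 had higher Dll3neo/neo averages by sign, and their mean ratio was 7.88 in that pool, against 0.959 to 0.968 in the other Dll3neo/neo pools and 0.813 to 0.953 in the wild-type pools.

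Lfng had lower values in the Dll3neo/neo pools by both of its probe sets, about 1.2-fold, while the means of its paralogs Mfng and Rfng lay between 0.981 and 1.08 in both genotypes, with single pools from 0.835 to 1.25. Pofut1 and Poglut1 had small differences in the same direction as Lfng. None of the 8 probe sets passed the test over all probe sets (limma, adjusted p = 0.9999 for each), and 0 of 8 reached an unadjusted p under 0.05, against 1.16% of all probe sets in either direction and 0.548% with lower mutant values. By sign 6 of 8 were lower in Dll3neo/neo pools, against 50.9% of all probe sets. Without wild-type pool 1 this was 4 of 8. The genotypes did not overlap for 1 of 8, a probe set of Lfng with lower mutant values, where 5.03% of all probe sets had no overlap, 1.99% with lower and 3.05% with higher mutant values. With lower mutant values this count was 2 of 8 without Dll3neo/neo pool 1 or pool 2 and 3 of 8 without wild-type pool 1, where 5.10%, 5.26% and 7.04% of all probe sets lay so. It stayed at 1 of 8 without Dll3neo/neo pool 3, wild-type pool 2 or wild-type pool 3, where 5.5%, 4.62% and 8.5% lay so. The median log2 difference of the 8 was -0.09, against about 0.00 for all probe sets. Their range over the pools was ordinary, with a median of 0.42 on the log2 scale for the 8 and 0.42 for all probe sets.

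**Figure D1:**
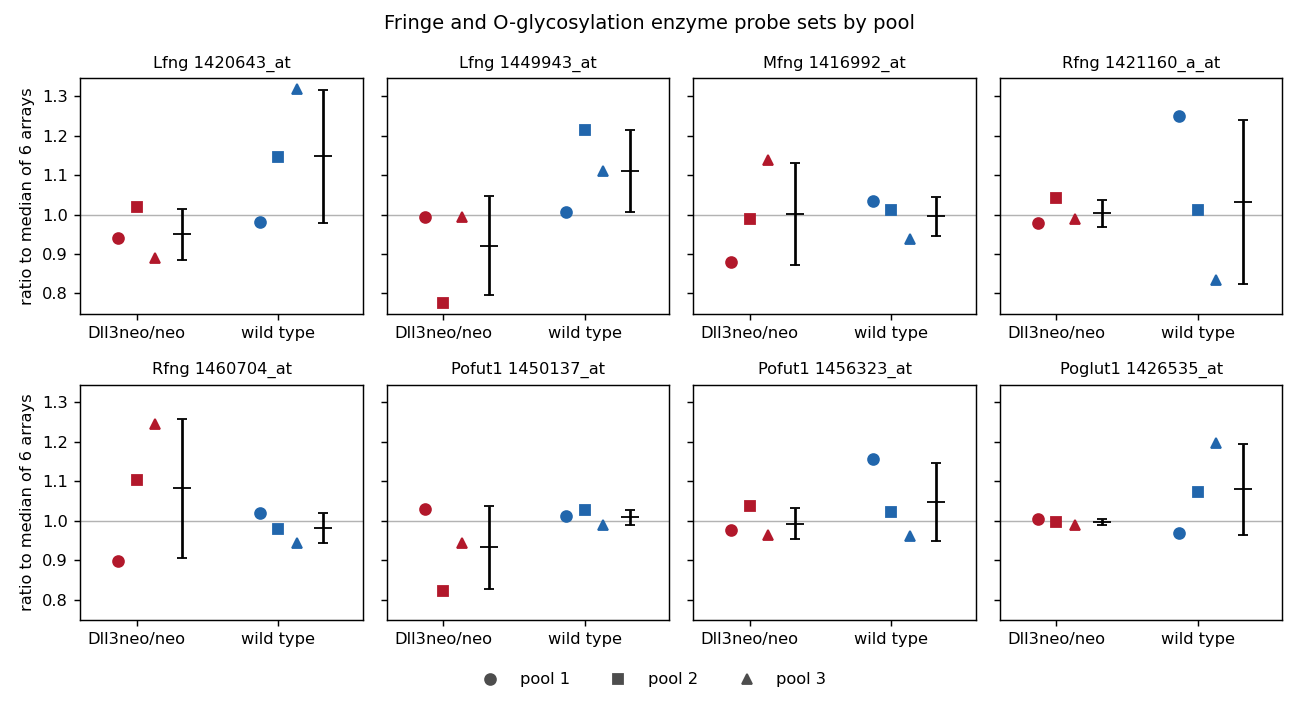
Ratio of each of the 8 probe sets to its median over the 6 arrays (y axis, linear) in every pool of Dll3neo/neo (red, left) and wild-type (blue, right) embryos; symbols mark the pool number, and bars give the mean and SD of 3 pools. The Lfng probe sets have lower means in Dll3neo/neo pools, 0.950 and 0.921, against 1.15 and 1.11 in wild-type pools, and 1449943_at of Lfng is the 1 probe set of the 8 without overlap between genotypes.

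Lfng, the cyclic fringe, was read by 1420643_at and 1449943_at. For 1420643_at the ratio was 0.941, 1.02 and 0.890 in Dll3neo/neo pools 1, 2 and 3, against 0.981, 1.15 and 1.32 in wild-type pools 1, 2 and 3. Wild-type pool 1 lay between the Dll3neo/neo values, so the genotypes overlapped by that pool, and wild-type pool 3 was the highest. The means were 0.950 ± 0.0650 in Dll3neo/neo pools and 1.15 ± 0.169 in wild-type pools (SD, n = 3 each). The log2 difference, Dll3neo/neo minus wild type, was -0.27 (SE 0.13), with a 95% interval from -0.57 to 0.04, and the unadjusted p in limma was 0.0771.

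For 1449943_at the ratio was 0.993, 0.776 and 0.994 in Dll3neo/neo pools 1, 2 and 3, against 1.01, 1.22 and 1.11 in wild-type pools 1, 2 and 3. The genotypes did not overlap, though the gap between the highest Dll3neo/neo pool and wild-type pool 1 was small, and Dll3neo/neo pool 2 was the lowest. The means were 0.921 ± 0.126 in Dll3neo/neo pools and 1.11 ± 0.105 in wild-type pools (SD, n = 3 each). By this probe set the log2 difference was -0.28 (SE 0.14), with a 95% interval from -0.58 to 0.03, and the unadjusted p in limma was 0.0736. On the fold scale, Dll3neo/neo over wild type, the Lfng intervals run from 0.676 to 1.02 for 1420643_at and from 0.668 to 1.02 for 1449943_at.

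The Lfng probe sets gave nearly the same difference from different pools. They were 0.39 apart on the log2 scale in Dll3neo/neo pool 2 and 0.25 apart in wild-type pool 3, and 0.16 or less apart in the other pools. Without wild-type pool 3 the log2 difference of 1420643_at was -0.16, and without Dll3neo/neo pool 2 that of 1449943_at was -0.16. Without wild-type pool 1 the differences were -0.37 and -0.34, with unadjusted p of 0.0206 and 0.0468 in limma and an adjusted p of 0.968 for both. Averaged over both probe sets, the log2 ratio of Lfng was -0.05, -0.17 and -0.09 in Dll3neo/neo pools 1, 2 and 3, against -0.01, 0.24 and 0.28 in wild-type pools 1, 2 and 3. These averages did not overlap between genotypes, as was so with lower mutant values for 1.84% of 12393 genes. Neither Lfng probe set passed the threshold, so a real difference was not shown. Were there one, fewer Lfng-expressing cells and less Lfng RNA per cell cannot be told apart in these pools. The phase of the clock in each embryo was not measured.

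Mfng, manic fringe, was read by 1416992_at and had about the same mean in both genotypes. Its ratio was 0.879, 0.988 and 1.14 in Dll3neo/neo pools 1, 2 and 3, against 1.03, 1.01 and 0.939 in wild-type pools 1, 2 and 3. The Dll3neo/neo pools spread on both sides of the wild-type pools, and Dll3neo/neo pools 1 and 3 were the lowest and the highest. For Mfng the log2 difference was 0.0023 (SE 0.13), and its sign turned with quantile normalization, median centring and array weights. It was -0.09 without Dll3neo/neo pool 3, -0.04 without wild-type pool 3 and 0.09 without Dll3neo/neo pool 1. Its 95% interval, from -0.28 to 0.28, leaves room for a change by a fold of 0.824 to 1.22.

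Rfng, radical fringe, had values that depended on the probe set. For 1421160_a_at, a probe set built to read several transcripts of the gene, the ratio was 0.979, 1.04 and 0.988 in Dll3neo/neo pools 1, 2 and 3, against 1.25, 1.01 and 0.835 in wild-type pools 1, 2 and 3. All the Dll3neo/neo pools lay between wild-type pools 1 and 3, which held the highest and the lowest value. This gave a log2 difference of -0.02 (SE 0.15), and it was 0.13 without wild-type pool 1 and -0.17 without wild-type pool 3.

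For 1460704_at the Rfng ratio was 0.897, 1.10 and 1.25 in Dll3neo/neo pools 1, 2 and 3, against 1.02, 0.980 and 0.944 in wild-type pools 1, 2 and 3. Here the spread was in the Dll3neo/neo pools, with pool 1 below and pools 2 and 3 above all wild-type pools. Its log2 difference was 0.13 (SE 0.14), the highest of the 8, with a 95% interval from -0.18 to 0.44. It was 0.02 without Dll3neo/neo pool 3 and 0.26 without Dll3neo/neo pool 1. The Rfng probe sets were up to 0.33 apart on the log2 scale within a pool, more than either differed between genotypes. The same held for the probe sets of Lfng, up to 0.39 apart, and those of Pofut1, up to 0.33 apart.

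Pofut1, the O-fucosyltransferase whose product all fringe enzymes extend, was read by 1450137_at and 1456323_at. For 1450137_at the ratio was 1.03, 0.823 and 0.944 in Dll3neo/neo pools 1, 2 and 3, against 1.01, 1.03 and 0.989 in wild-type pools 1, 2 and 3. The wild-type pools lay close together, and Dll3neo/neo pool 2 was the lowest. The log2 difference was -0.12 (SE 0.12), with a 95% interval from -0.39 to 0.15, and it was -0.03 without Dll3neo/neo pool 2 and -0.19 without Dll3neo/neo pool 1.

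For 1456323_at the Pofut1 ratio was 0.977, 1.04 and 0.963 in Dll3neo/neo pools 1, 2 and 3, against 1.16, 1.02 and 0.962 in wild-type pools 1, 2 and 3. Wild-type pool 1 alone lay above the Dll3neo/neo pools. This gave a log2 difference of -0.07 (SE 0.11), and it was 0.0002 without wild-type pool 1 and -0.13 without wild-type pool 3. In Dll3neo/neo pool 2 the Pofut1 probe sets were 0.33 apart on the log2 scale, and this pool also held the lowest value of Lfng 1449943_at.

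Poglut1, the O-glucosyltransferase known in flies as Rumi, was read by 1426535_at. Its ratio was 1.004, 0.996 and 0.990 in Dll3neo/neo pools 1, 2 and 3, against 0.968, 1.07 and 1.197 in wild-type pools 1, 2 and 3. The Dll3neo/neo pools were nearly equal, with a mean of 0.997 ± 0.00702, and the wild-type pools spread around a mean of 1.08 ± 0.115 (SD, n = 3 each). Wild-type pool 1 lay below and wild-type pools 2 and 3 above all Dll3neo/neo pools. For Poglut1 the log2 difference was -0.11 (SE 0.12), with a 95% interval from -0.37 to 0.15, and it was -0.03 without wild-type pool 3 and -0.19 without wild-type pool 1.

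Whether Lfng differed between genotypes unlike the other enzymes was asked within pools, by subtracting the log2 ratio of each other enzyme from that of Lfng. With 3 against 3 pools the exact permutation test cannot go below 0.10. Lfng minus Mfng was 0.14, -0.15 and -0.27 in Dll3neo/neo pools 1, 2 and 3, against -0.06, 0.22 and 0.37 in wild-type pools 1, 2 and 3. The genotypes overlapped through pool 1 of each, and the mutant minus wild-type difference was -0.27 (exact permutation test, two-sided, p = 0.20). Lfng minus Rfng was 0.04, -0.27 and -0.24 in Dll3neo/neo pools, against -0.18, 0.24 and 0.45 in wild-type pools, a difference of -0.32 (exact permutation p = 0.20). Pool 1 of each genotype again ran against the other pools.

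Lfng minus Pofut1 was -0.05, -0.06 and -0.02 in Dll3neo/neo pools 1, 2 and 3, against -0.12, 0.20 and 0.31 in wild-type pools 1, 2 and 3, a difference of -0.17 (exact permutation p = 0.40). Lfng minus Poglut1 was -0.05, -0.16 and -0.07 in Dll3neo/neo pools, against 0.04, 0.14 and 0.02 in wild-type pools, a difference of -0.16 (exact permutation p = 0.10, the smallest possible). This was the 1 of the 4 differences without overlap, and with 1 probe set a gene in place of their mean its exact permutation p was 0.40. Adjusted over the 4 differences the exact permutation p was 0.267, 0.267, 0.40 and 0.267 for Mfng, Rfng, Pofut1 and Poglut1. The test could not reach 0.05 with these pools, so it cannot decide whether Lfng differs from its paralogs or from the transferases. Without wild-type pool 3 the differences from Mfng, Rfng and Pofut1 were smaller in size, at -0.18, -0.18 and -0.08, and that from Poglut1 was -0.18.

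**Figure D2:**
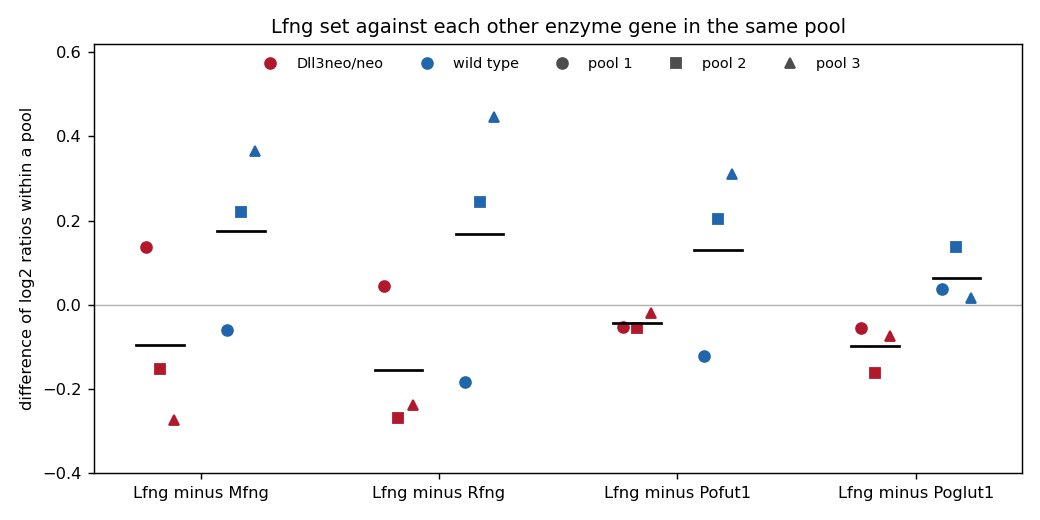
Log2 ratio of Lfng minus that of Mfng, Rfng, Pofut1 or Poglut1 in the same pool (y axis), for Dll3neo/neo pools (red, left) and wild-type pools (blue, right); symbols mark the pool number and black lines the mean of 3 pools, a gene being the mean of its probe sets. The Dll3neo/neo means are below the wild-type means in all 4 differences, and the pools overlap in the first 3.

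Other genes of protein glycans, most of them acting on repeats of the epidermal growth factor type, were compared as a list of 9. Of these 4 were measured and the others were not analysed here, and 0 of its 9 probe sets passed. By gene 2 were lower and 2 higher in the Dll3neo/neo pools, with a median log2 difference of -0.0082. This count and median include Pofut2, which does not fucosylate the repeats of Notch and was higher, at 0.04 averaged over its probe sets. Eogt, which adds N-acetylglucosamine directly to the repeats, had the smallest p. By 1454678_s_at, a kind of probe set that can also read related transcripts, its ratio was 0.951, 0.945 and 0.997 in Dll3neo/neo pools, against 1.003, 1.11 and 1.43 in wild-type pools, without overlap. The log2 difference was -0.28 (SE 0.14), -0.13 without wild-type pool 3, and -0.32 by its other probe set, where the genotypes overlapped. Pofut2, which fucosylates thrombospondin type repeats and not those of Notch, had 0.15 by 1416573_at, which was 0.01 without Dll3neo/neo pool 3, and values from -0.07 to 0.11 by its other probe sets.

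Enzymes and carriers that supply the sugar nucleotides formed a list of 16, of which 10 were measured, and 0 of its 27 probe sets passed. By gene 6 were lower and 4 higher, with a median log2 difference of -0.05 that was 0.0059 without wild-type pool 3. Uxs1, which makes the UDP-xylose used to extend O-glucose, had the smallest p, with ratios of 0.983, 0.949 and 1.02 in Dll3neo/neo pools, against 0.927, 1.24 and 1.41 in wild-type pools by 1452011_a_at. Its log2 difference was -0.25 (SE 0.15), and -0.12 without wild-type pool 3. Uap1, which makes the UDP-N-acetylglucosamine used by the fringe enzymes, had -0.23 by 1437490_x_at and -0.04 without wild-type pool 3, and its other probe sets ran from -0.11 to -0.02. The median of 1437490_x_at over the arrays lay below 1, unlike those of the enzymes above.

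The substrates, Notch receptors and ligands other than Dll3, formed a list of 8, all measured, and 0 of 15 probe sets passed. By gene 5 were lower and 3 higher, with a median log2 difference of -0.04. Notch1, the main receptor of the presomitic mesoderm, had -0.10 by 1418634_at and -0.06 by its other probe set. Notch2 had 0.05 and 0.0098, Notch3 had -0.15 and 0.13, and the Delta ligand Dll1 had -0.15. Jag1, a ligand whose signal fringe enzymes can weaken, had ratios of 0.927, 1.04 and 0.766 in Dll3neo/neo pools, against 1.14, 1.07 and 0.960 in wild-type pools by 1421105_at. These overlapped, and the log2 difference was -0.22 (SE 0.14), -0.10 without Dll3neo/neo pool 3, and -0.16 by its other probe set.

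Notch targets of the clock, the class to which Lfng belongs, formed a list of 9 others, all measured, and 0 of 13 probe sets passed. By gene 7 were lower and 2 higher, against 48.9% lower among all 12393 genes, with a median log2 difference of -0.18 that was -0.09 without wild-type pool 3. The median for all genes was 0.0028. The feedback inhibitor Nrarp had ratios of 0.831, 0.698 and 0.788 in Dll3neo/neo pools, against 1.17, 1.17 and 1.30 in wild-type pools by 1417985_at, without overlap, a log2 difference of -0.65 (SE 0.12). The oscillating repressor Hes7 had 0.720, 0.842 and 0.916 in Dll3neo/neo pools, against 1.09, 1.16 and 1.08 in wild-type pools, without overlap, a log2 difference of -0.43 (SE 0.12). The difference of Lfng was thus smaller in size than those of Nrarp and Hes7, and close to that of the repressor Hes1, which had -0.23 (SE 0.17) with overlapping pools and -0.08 without Dll3neo/neo pool 1. Whether these genes differ from Lfng was not tested.

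**Figure D3:**
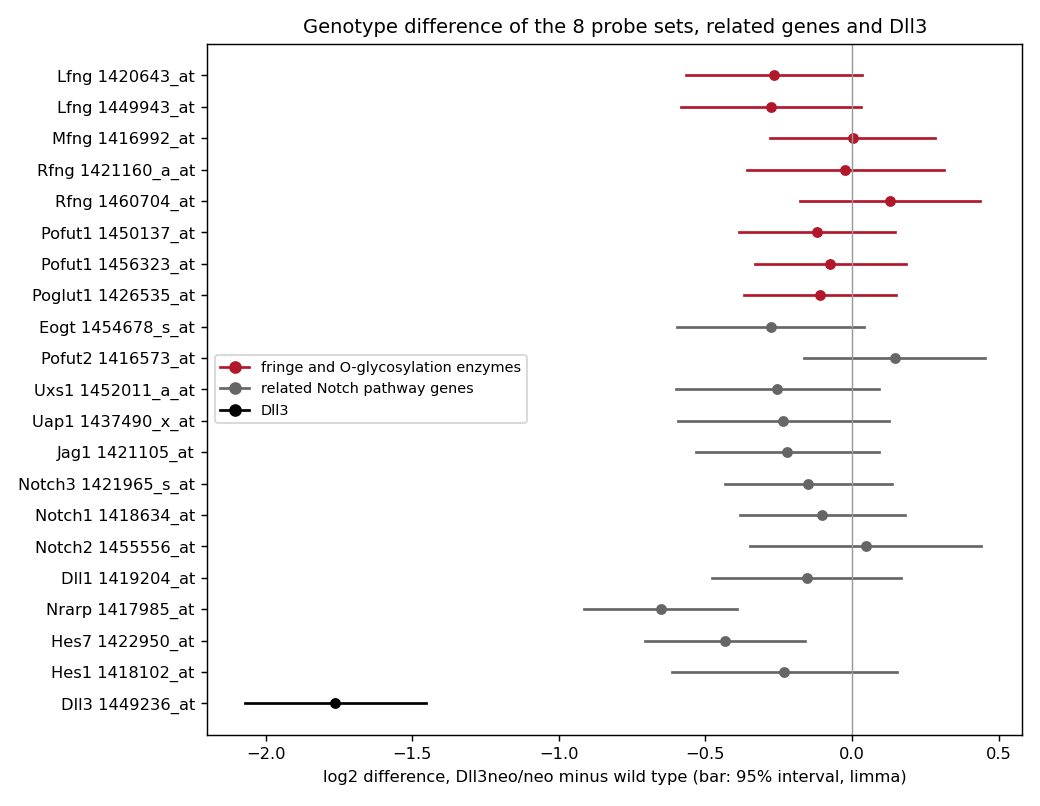
Log2 difference, Dll3neo/neo minus wild type (x axis), with its 95% interval from limma, for the 8 enzyme probe sets (red), related Notch pathway genes (grey) and Dll3 (black). The intervals of all 8 enzyme probe sets include 0, those of Nrarp and Hes7 lie below 0 before adjustment, and that of Dll3 runs from -2.07 to -1.45.

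Markers of the tissues in the cut level were set beside Lfng. Genes of the tail bud and posterior presomitic mesoderm formed a list of 12, of which 10 were measured. It had lower values in Dll3neo/neo pools for 10 of 10 genes by sign, against 48.9% of all 12393 genes, and 0 of 12 probe sets passed. Its median log2 difference was -0.25, close to that of Lfng, and -0.14 without wild-type pool 3 and -0.41 without wild-type pool 2. Its median log2 ratio was -0.16, -0.18 and 0.11 in Dll3neo/neo pools 1, 2 and 3, against 0.17, -0.07 and 0.46 in wild-type pools 1, 2 and 3. The mean ratio of its members ran from 0.849 to 1.05 in Dll3neo/neo pools and from 0.960 to 1.34 in wild-type pools. This list and Lfng were both highest in wild-type pool 3 and both lowest in Dll3neo/neo pool 2. They parted in wild-type pool 1, where the list lay above and Lfng just below the median of the arrays, in wild-type pool 2, where Lfng was high, at 0.24, and in Dll3neo/neo pool 3, where the list lay above its wild-type pool 2 value and Lfng did not. The part of this tissue in the Lfng values was not tested.

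The somite list had higher values in Dll3neo/neo pools for 8 of 8 genes by sign, with mean ratios from 0.934 to 1.14 in Dll3neo/neo pools and from 0.843 to 1.01 in wild-type pools. The endothelium list had 6 of 8 higher by sign, with mean ratios from 1.03 to 1.13 in Dll3neo/neo pools and from 0.916 to 1.02 in wild-type pools. The median log2 difference was 0.17 for somite and 0.11 for endothelium markers, opposite in sign to that of Lfng. It was 0.05 for neural progenitor, -0.0072 for early neuron, 0.0082 for blood, -0.07 for gut and notochord endoderm and 0.05 for surface ectoderm markers. Heart muscle markers had a median log2 difference of 0.92, and 0.10 without Dll3neo/neo pool 1. Lfng and the other enzymes were not extreme in that pool except for the lowest values of Mfng and Rfng 1460704_at and the highest of Pofut1 1450137_at.

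**Figure D4:**
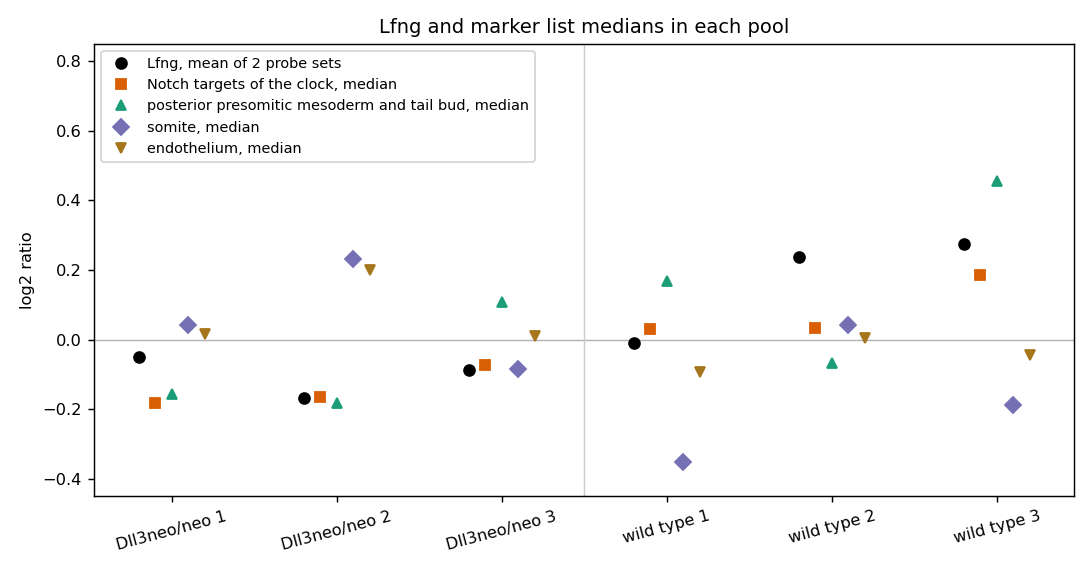
Log2 ratio of Lfng (black, mean of both probe sets) and the median log2 ratio of 4 gene lists (y axis) in each Dll3neo/neo and wild-type pool (x axis). Lfng and the posterior presomitic mesoderm list are both highest in wild-type pool 3, at 0.28 and 0.46, and both lowest in Dll3neo/neo pool 2, at -0.17 and -0.18.

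The profile of Lfng over the 6 pools was compared with every other probe set of 1 annotated gene by the root mean square difference of log2 ratios, each centred on its mean over the pools. Among the other enzymes, with probe sets averaged, Poglut1 was the nearest to Lfng at 0.09, followed by Pofut1 at 0.16, Mfng at 0.22 and Rfng at 0.27. The median over 20378 probe sets was 0.22. A profile with little spread over the pools also lies near Lfng by this measure, so the order is not one of shared pattern alone. The 5 nearest genes were Bpnt1, a phosphatase of sulfur metabolism, at 0.04, the kinase Mapk9 at 0.05, the cAMP-responsive transcription factor Creb1 at 0.05, the nuclear export factor Cse1l at 0.05, and Tprkb at 0.06. Bpnt1 had ratios of 0.987, 0.906 and 0.930 in Dll3neo/neo pools, against 1.01, 1.17 and 1.30 in wild-type pools by 1418764_a_at, and its other probe set lay at 0.05 from Lfng. The likeness was less firm for Tprkb, whose other probe sets lay at 0.27 and 0.38, for Mapk9, at 0.15 and 0.21, and for Creb1, at 0.10, 0.18 and 0.20. The Lfng probe sets themselves were 0.20 apart by this measure.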

How the data were processed

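Expression was measured on 1 Affymetrix MOE430A array for each of 6 pools, 3 of each genotype, with the replicate numbers of the sample titles. The deposited values are ratios on a linear scale, which the numbers show to be relative to the probe set's median (equal to 1 within 0.0011 for 92.8% of probe sets, and lower for 1640, none of them an enzyme examined here). The submitters' processing notes list RMA and MAS5 but give no step for either, so how probes were summarised, how arrays were normalized and how bright a probe set was are not known, and the number of arrays limits the precision. The 64 control probe sets were left out, which left 22626. By the platform's annotation 20380 of these carry 1 gene symbol.

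Genotypes were compared on log2 of the ratio by a two-sided moderated fit with no term but genotype (limma 3.58.1, R 4.3.3). P-values were adjusted by Benjamini and Hochberg's method over the 22626 probe sets, and 0.05 was the threshold. Lfng was set against each other enzyme by an exact permutation test over pools, a gene being the mean log2 ratio of its probe sets. Gene lists are described by counts and medians, without a test. Every probe set of the 5 enzymes is named. From each Notch list the 2 genes with the smallest p, and 7 receptors, ligands and targets chosen by name, are given by their probe set with the smallest p, as are the 5 genes most like Lfng over the pools. The members, lists and rules were chosen with earlier results of these data known. Same-numbered pools of the 2 genotypes did not deviate together throughout, with correlations of 0.21, 0.02 and 0.17, so they were not paired. Between pools of unlike number the correlations ran from -0.21 to 0.08. Alternatives were quantile normalization, median centring, log2(ratio + 1), leaving out the probe sets whose median ratio was below 1, robust variances, array weights, a replicate block, 1 probe set a gene and leaving out each pool. Promoter windows are those of RefSeq on GRCm38.p6. Plots were drawn with matplotlib 3.10.9.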

Additional observations from a re-analysis of the deposited data

How the results depend on the processing

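In each of the 13 other fits 0 of the 8 enzyme probe sets passed the threshold. The number of all probe sets past it was 4 with array weights and 2 with quantile normalization, and 0 to 1 when each pool was left out. The sign of Mfng turned with array weights (-0.0168), median centring (-0.0015) and quantile normalization (-0.0232), and leaving out each pool gave -0.0938 to 0.0925. Leaving out each pool gave -0.1658 to 0.1252 for Rfng 1421160_a_at, -0.1330 to 0.0002 for Pofut1 1456323_at and -0.1043 to 0.1997 for Notch2, and array weights turned Notch3 to 0.0051. Both Lfng probe sets stayed below 0 in the 13 fits, from -0.37 to -0.14 for 1420643_at and from -0.43 to -0.14 for 1449943_at, where log2(ratio + 1) gave the smallest size by construction. With a replicate block, as the shared numbers of the pools allow, the Lfng differences were -0.27 and -0.28 (adjusted p = 0.9999 for both, limma). The block called 1 probe set, and it changed no call. With it 434 of all probe sets had an unadjusted p under 0.05 in limma, against 262 without it. Dll3neo/neo pool 2 did not correlate best with the wild-type pool of its own number. Array weights rested on wild-type pool 2 (weight 83.9, against 0.137 to 0.756 for the others). With them 3 of the 8 probe sets reached an unadjusted p under 0.05 in limma. So did 3641 of all 22626 probe sets, against 262 without the weights. The lowest adjusted p among the 8 was then 0.134 in limma, for Lfng 1449943_at. All 4 differences of Lfng from another enzyme stayed below 0 in every setting tried, from -0.50 to -0.08. With 1 probe set a gene the exact permutation p of Lfng minus Poglut1 was 0.40. The number of pools limits every value, and brightness is not known.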
